A study of Mus musculus with 2 samples.

Results

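Mitochondrial-transcript-poor, ribosomal-protein-rich cells (mt-poor, RP-rich cells below) were examined in single-cell libraries of mouse ES cells, wild-type (WT) or with a *Lin28a* knockout (KO). They were chosen by 4 measured values of each cell barcode, namely at least 2000 unique molecular identifiers (UMIs, which count captured transcripts), under 0.5% of UMIs on mitochondrially encoded (mt-) genes, at least 12% on ribosomal protein (RP) genes, and under 0.3% on *Col1a1*, *Col1a2* and *Col3a1*, collagens of the feeder fibroblasts. These limits were met by 217 of 1642 WT and 268 of 1110 KO barcodes with at least 2000 UMIs, or 485 of 2752 in all. Reference cells had the same depth and collagen limits with an mt- share of 0.5 to 20% and an RP share of at least 5%, which 1362 WT and 779 KO barcodes met. Shares of mt-, RP and collagen transcripts are therefore fixed by the selection and are given as description.

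Each genotype was 1 inDrop library, in which droplets pair a cell with barcoded primers that copy polyadenylated RNA from its 3′ end. The WT library was from E14 cells of the transfected clone a2.1, and the KO library from clone a3.5, made with CRISPR/CAS9 and a guide to the second exon of *Lin28a*. Each genotype was thus a clonal line, and both lines, derived from the inner cell mass, were grown for 2 days in LIF/2i medium on gelatin with mouse embryonic fibroblast (MEF) feeders. With 1 library a genotype there was no replicate, no test was made, and all intervals are exact 95% intervals of counting error only. The genotype cannot be told apart from any other difference between the 2 cultures.

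*Lin28a* encodes an RNA-binding protein of pluripotent cells. The count check of the targeted gene used 3′ tags, which do not read the lesion in the second exon. Wild-type mt-poor, RP-rich cells held 99 *Lin28a* UMIs (67.9 remaining CPM, that is, CPM over the UMIs outside the RP, mt- and collagen genes of the rule) and KO ones 27 (18.03 remaining CPM). The reference cells were at 133.7 remaining CPM in the WT and 48.1 in the KO library, so both kinds of cell had less in the KO library.

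Ribosomal proteins are made in the cytoplasm from short, abundant nuclear transcripts that begin with a 5′ terminal oligopyrimidine (TOP) tract, through which their translation responds to growth signals. The mitochondrial genome is transcribed from both strands as long precursors, which are cut into 2 rRNAs, 13 mRNAs and tRNAs. All but 1 of the mRNAs, *mt-Nd6*, lie on the same strand. Their products are respiratory chain subunits that work with many nuclear-encoded subunits. ES cells express *Pou5f1* and *Nanog*, transcription factors of pluripotency, and in LIF/2i they also express naive factors such as *Zfp42*.

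Of the transcript properties examined, base composition separated the genes higher and lower in these cells most widely, as described below. The last 60 coding bases of 7 transcripts are therefore shown, 5′ to 3′, with G and C in capitals, from the GENCODE M21 transcripts of GRCm38. They stand for an RP gene, a ribosomal gene that the rule did not use, an mt- mRNA that was very low and the mt- mRNA that was least reduced, and genes from both ends of the ranking.
*Rps6*: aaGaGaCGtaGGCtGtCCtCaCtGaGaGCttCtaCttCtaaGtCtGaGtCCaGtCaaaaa
*Rplp0*: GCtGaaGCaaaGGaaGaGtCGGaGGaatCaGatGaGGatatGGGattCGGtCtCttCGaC
*mt-Nd1*: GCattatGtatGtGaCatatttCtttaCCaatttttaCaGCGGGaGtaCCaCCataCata
*mt-Nd6*: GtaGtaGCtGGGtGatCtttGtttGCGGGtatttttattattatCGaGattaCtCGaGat
*Eif3f*: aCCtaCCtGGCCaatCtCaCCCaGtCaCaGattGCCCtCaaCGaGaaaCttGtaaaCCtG
*2610318N02Rik*: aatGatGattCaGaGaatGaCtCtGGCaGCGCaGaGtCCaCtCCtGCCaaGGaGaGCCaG
*Gm17555*: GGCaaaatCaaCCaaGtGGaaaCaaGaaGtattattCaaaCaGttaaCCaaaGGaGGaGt

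G and C made up 27 of these 60 bases in *Rps6* (chr4:86854660-86857412, minus strand, transcript bases 774 to 833), 30 in *Rplp0* (chr5:115559467-115563727, plus strand, bases 1013 to 1072), 30 in *Eif3f* (chr7:108934417-108942951, plus strand, bases 1039 to 1098) and 32 in *2610318N02Rik* (chr16:17113398-17125167, minus strand, bases 1150 to 1209). They made up 21 in *mt-Nd1* (chrM:2751-3707, plus strand, bases 895 to 954), 22 in *mt-Nd6* (chrM:13552-14070, minus strand, bases 457 to 516) and 22 in *Gm17555* (chr2:126215100-126216212, plus strand, bases 1054 to 1113). The mt- pair was thus alike in base composition. Over the last 1000 bases, or the whole transcript where shorter, GC content was 50% in *Rps6*, 51.3% in *Rplp0*, 41.9% in *Eif3f*, 55% in *2610318N02Rik*, 37.6% in *mt-Nd1*, 34.1% in *mt-Nd6* and 38.2% in *Gm17555*. *Eif3f* was GC-rich in its coding sequence (57.5%) and not in its 1413-base 3′ UTR (43.9%).

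The mt-poor, RP-rich cells made up 13.2% of deep WT barcodes (interval 11.6 to 14.95%) and 24.1% of deep KO barcodes (21.7 to 26.8%). The KO share was 1.83 times the WT share (1.52 to 2.20). This ratio was 2.29 with an RP minimum of 15%, where the WT share was 7.98%, and 1.45 among barcodes of at least 5000 UMIs. Their cells carried 15.1% of the UMIs of deep WT and 20.1% of those of deep KO barcodes. Most cells under the mt- limit also met the RP limit, since 91.6% of the 237 WT and 98.2% of the 273 KO barcodes under 0.5% mt- reached 12% RP. Conversely, 93 of the 1362 WT reference cells (6.83%) and 124 of the 779 KO ones (15.9%) reached 12% RP.

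The other 63 deep barcodes of each library were in neither class. Collagen was at or over the limit in 42 WT and 13 KO barcodes, mt- was low with an RP share under 12% in 20 and 5, and of the rest, with mt- of 0.5% or more, the RP share was under 5% in 1 and 45. Scrublet, a doublet caller, marked 30 WT and 10 KO barcodes, 1 of them an mt-poor, RP-rich cell in each library. Barcodes were listed under running names and not by sequence, so those shared between libraries could not be counted.

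**Figure D1:**
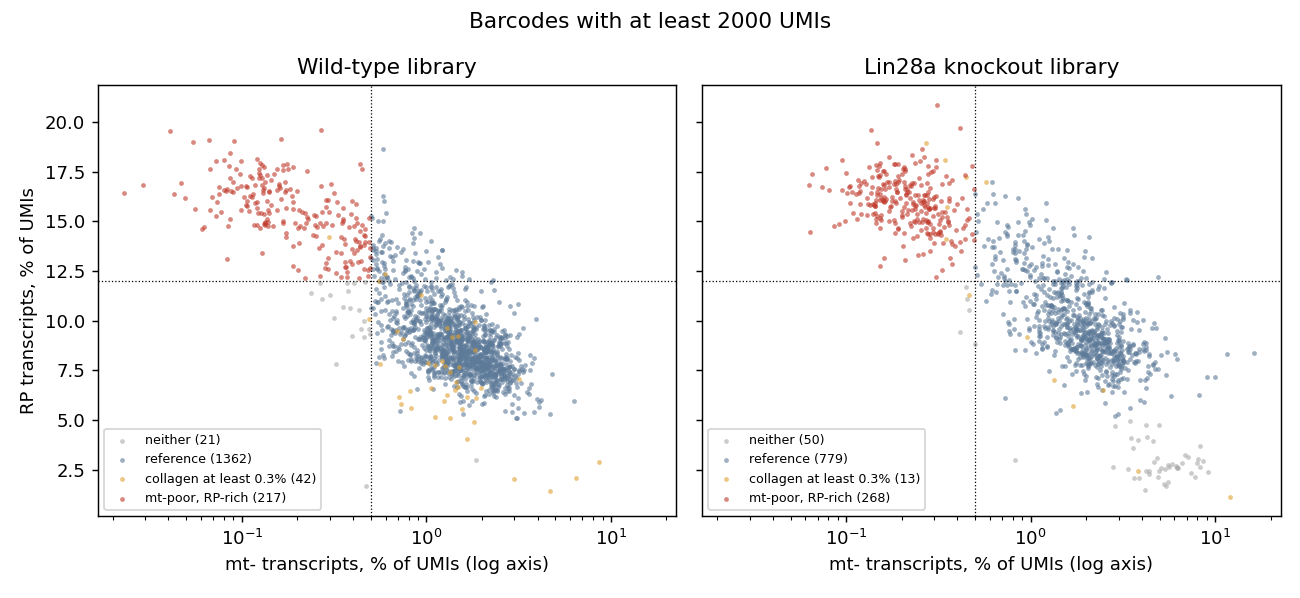
Share of UMIs on mt- genes (horizontal, percent, log axis) against the share on RP genes (vertical, percent) for each barcode with at least 2000 UMIs in the WT (left) and KO (right) library, with dotted lines at the limits of 0.5% and 12%. The 217 and 268 mt-poor, RP-rich cells lie at the upper left end of a band that runs from the reference cells, and the KO library has 45 barcodes with low collagen, at least 0.5% mt- and under 5% RP at the lower right.

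Just inside the mt- limit, at 0.4 to 0.5% with at least 12% RP, 31 WT cells had a median RP share of 14.0%, and just outside it, at 0.5 to 0.6%, 36 had 13.4%. The same bands of the KO library held 15 cells with a median of 15.04% and 10 with 14.7%. Inside the RP limit, at 12 to 13%, were 22 WT and 4 KO cells, and outside it, at 11 to 12% with a low mt- share, 8 and 2. The limits therefore cut through a continuous range, more so in the WT library.

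The mt-poor, RP-rich cells had a median of 7681 UMIs in the WT and 6195 in the KO library, against 6333 and 8067 in the reference cells. They were the deeper class in the WT and the shallower in the KO library. The median mt- share was 0.17% and 0.22% against 1.48% and 1.93%, and the median RP share 15.5% and 16.0% against 8.69% and 9.48%. A WT cell of this class had a median of 3031 genes with a UMI, and a reference cell 3048. The KO medians were 2549 and 3517. Taken at 2000 UMIs in every cell, the medians were 1191 against 1342 genes in the WT and 1170 against 1328 in the KO library. Since the rule sets a larger share of UMIs on few RP genes in these cells, part of this difference was fixed by the selection.

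All 9 ES markers had UMIs in these cells in both libraries. *Pou5f1* was at 1320 remaining CPM in WT and 1355 in KO mt-poor, RP-rich cells, against 927 and 1185 in the reference cells, and 44.7 and 201.6 in the collagen-rich barcodes of feeder fibroblasts. In the WT library the counting intervals of all 9 lay above those of the collagen-rich barcodes, and in the KO library those of 8. The exception was *Nanog* in the KO library, at 69.4 remaining CPM (56.7 to 84.1) in the class and 67.2 (24.7 to 146.3) in the collagen-rich barcodes. The latter value rests on 6 UMIs in 3 of 13 barcodes. The level of *Nanog* there was thus not shown to be above that of barcodes of another cell type, and the wide interval cannot decide it. The 9 ES markers together were at 6410 and 6438 remaining CPM, against 4820 and 5221 in the reference. Without *Dppa5a*, left out after the values were seen, the other 8 summed to 3561 and 3475 remaining CPM, against 3658 and 3853. *Nanog*, *Zfp42* and *Tdgf1* were lower than in the reference in both libraries, as described with the pluripotency lists. The 9 fibroblast markers summed to 311.2 and 291.1 remaining CPM, against 494.2 and 489.8 in the reference and 23497 and 20932 in collagen-rich barcodes, and *Col5a2* and *Postn* were at 0. The 3 collagens of the rule are in these sums, so their contrast with collagen-rich barcodes was fixed by the selection. Most of the sum in the class was *Fn1*, which the rule did not use, with 426 of 454 UMIs in the WT and 395 of 436 in the KO library. *Fn1* was at 292.0 and 263.7 remaining CPM, against 463.3 and 451.9 in the reference and 1466 and 840.0 in collagen-rich barcodes.

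The 7 primitive endoderm markers had 14 and 18 UMIs in all, with *Foxq1* at 0 in both libraries. The 6 2C-like markers, which include *Zscan4c* and *Zscan4d*, had 0 UMIs in these cells of either library and 5 in the reference cells of each (0.61 and 0.832 remaining CPM). The floor for 0 UMIs, 3 counts over all cells of the class, is 2.06 remaining CPM in the WT and 2.00 in the KO library, above those levels, so no difference in these 6 was detectable at this depth. The wider 2C-like list had 4 UMIs in the WT class, at 2.74 against 4.27 remaining CPM in the reference, a ratio of 0.643 (0.166 to 1.80). In the KO class it had 0 UMIs, against 5.32 remaining CPM in the reference, and the interval of the ratio reached up to 0.49. Of the 5 primed epiblast markers *Dnmt3b* had 95 UMIs in the WT and 61 in the KO class. The wider primitive endoderm list of 16 genes summed to 412.7 remaining CPM in the WT and 418.6 in the KO class, against 323.7 and 340.9 in the reference, ratios of 1.27 (1.17 to 1.39) and 1.23 (1.12 to 1.34). Most of it was *Sparc*, a secreted matrix protein, with 519 of 602 and 548 of 627 UMIs. The part of primitive endoderm transcripts in the results was not tested.

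The mt- share was used by the rule, but not its division among mt- genes. *mt-Nd1*, a complex I subunit, was at 149.6 CPM over all UMIs in WT and 163.7 in KO mt-poor, RP-rich cells, against 2212 and 2954 in the reference. These are folds of 14.8 (13.1 to 16.8) and 18.04 (16.1 to 20.3) in favour of the reference. *mt-Atp6*, an ATP synthase subunit, was lower by folds of 15.7 (13.6 to 18.3) and 10.3 (9.47 to 11.2). *mt-Co1*, the catalytic subunit of cytochrome oxidase, was lower by folds of 11.02 (9.81 to 12.4) and 12.8 (11.6 to 14.1). *mt-Co2*, of the same enzyme, was lower by only 4.86 (4.43 to 5.33) and 5.65 (5.28 to 6.06).

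*mt-Nd6*, also a complex I subunit and the mRNA of the other strand, was at 187.7 and 216.4 CPM against 265.7 and 333.7. The folds were 1.42 (1.26 to 1.59) and 1.54 (1.38 to 1.72), the smallest of the 12 mt- mRNAs with more than 4 UMIs in these cells. It made up 9.01% of mt- UMIs in WT and 9.26% in KO mt-poor, RP-rich cells, and 1.69% and 1.61% in the reference. Its GC content of 34.1% was close to that of *mt-Nd3* (33.0%), which had folds of 9.68 (7.11 to 13.5) and 10.4 (7.69 to 14.5). Whether the counting used strand is not given in the sources used here, so *mt-Nd6* reads and antisense reads of that stretch cannot be told apart. *mt-Atp8*, with 1 and 4 UMIs, was too rare to place.

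The mitochondrial rRNAs differed between libraries. *mt-Rnr1*, of the small subunit, was at 252.3 CPM in WT mt-poor, RP-rich cells against 1279 in the reference, a fold of 5.07 (4.61 to 5.59). In the KO library it was at 54.95 against 630.5 CPM, a fold of 11.5 (9.39 to 14.2). *mt-Rnr2*, of the large subunit, had folds of 4.88 (4.55 to 5.25) and 10.3 (9.10 to 11.6). With 1 library each these differences have no replicate check. The rRNAs took 33.7% of the mt- UMIs of these cells in the WT and 8.90% in the KO library, against 22.1% and 10.7% in the reference cells.

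**Figure D2:**
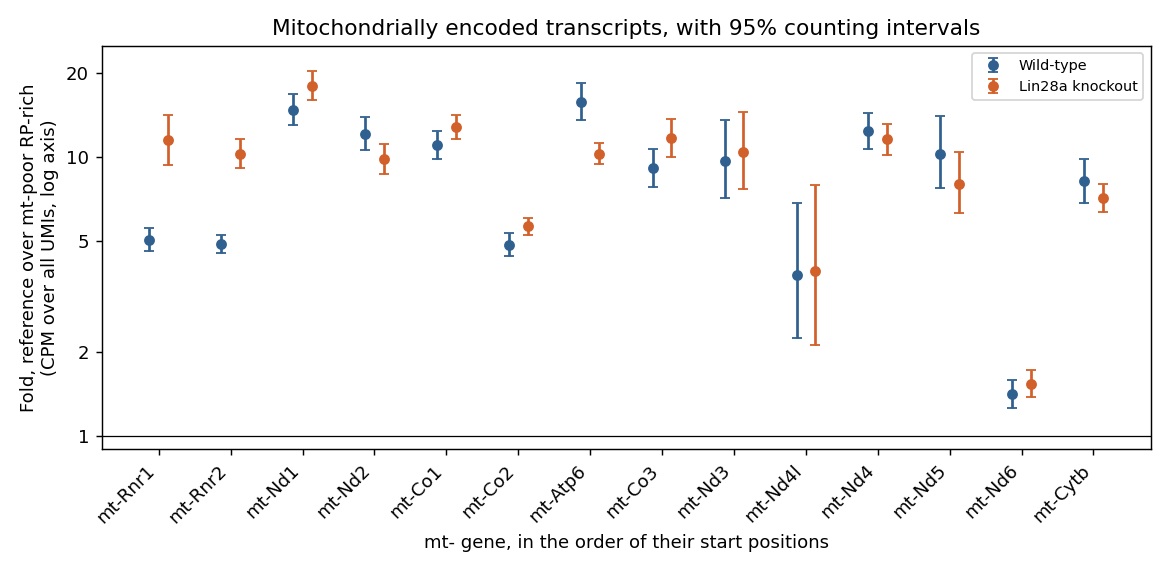
Fold of reference cells over mt-poor, RP-rich cells (vertical, log axis, from CPM over all UMIs) for the 2 mitochondrial rRNAs and 12 mRNAs in the order of their start positions, with points for the WT and KO libraries and bars for 95% counting intervals. *mt-Nd6* lies at 1.42 and 1.54, all others lie between 3.78 and 18.04, and both rRNAs are further apart between the libraries than any mRNA shown.

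RP transcripts were used by the rule as a sum. *Rps6*, of the small subunit, was at 2012 CPM over all UMIs in WT and 1811 in KO mt-poor, RP-rich cells, against 1094 and 1072 in the reference. *Rpl11*, of the large subunit, was at 1705 and 1632 CPM against 757 and 862. Of 84 RP genes with at least 20 UMIs expected in these cells, 80 had a ratio above 1 in each library. Of the 84, 68 in the WT and 57 in the KO library were at least 1.5-fold higher, with median log2 ratios of 0.87 and 0.75. All RP gene ratios in this paragraph are from CPM over all UMIs. The same 4 had no ratio above 1 in either, namely *Rpl4*, *Rps27l*, *Rpl22l1* and *Rpl10l*, of which the last 3 are paralogs of other RP genes. *Rpl22l1* was at log2 ratios of -0.86 and -1.78. Reads of RP genes and their many pseudogenes can be split by the counting, so values of single RP genes are uncertain.

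Across genes outside the rule, remaining CPM was compared between these cells and the reference within each library, with 0.5 counts added. A gene was called when it differed at least 1.5-fold, among genes with at least 20 UMIs expected in the mt-poor, RP-rich cells. In the WT library 2068 of 8520 genes were higher (24.3%) and 3340 lower (39.2%). In the KO library 1985 of 8863 were higher (22.4%) and 3575 lower (40.3%). The median log2 ratio of all genes was -0.22 and -0.25, and median-of-ratios scaling gave 2749 higher and 2804 lower genes in the WT and 2909 and 2950 in the KO library. Against reference cells with at least 12% RP the counts were 829 higher and 1362 lower in the WT and 801 and 1705 in the KO library. Against reference cells of 0.5 to 1% mt-, a choice made after the data were seen, the KO counts were 873 and 1795.

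Of 8184 genes measured in both libraries, 1510 were called higher in both (18.5%), 2869 lower in both (35.1%) and 1 in opposite directions (0.0122%). The log2 ratios had a Pearson correlation of 0.932 and a Spearman correlation of 0.942 across these genes, and 7526 (92.0%) had the same sign. Genes are not independent replicates, and the same rule drew the cells of both libraries. The cells of the 2 libraries thus departed from their own references in much the same genes.

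The log2 ratio of a gene followed the GC content of its transcript. Across genes the Spearman correlation with GC content of the last 1000 bases was 0.765 in the WT (n = 8517) and 0.749 in the KO library (n = 8860). It was 0.686 and 0.656 with GC content of the whole transcript, 0.661 and 0.666 with that of the 3′ UTR, 0.587 and 0.573 with that of the coding sequence, and -0.015 and -0.030 with that of the 5′ UTR. Transcript length gave -0.446 and -0.414, and after the median ratio of genes of like GC content was subtracted, -0.161 and -0.110. The points share libraries, and GC content and length vary together across genes.

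Of 1351 WT genes with 35 to 40% GC, 0.962% were higher and 80.8% lower, with a median log2 ratio of -1.38. Of 910 genes with 55 to 60% GC, 69.9% were higher and 2.09% lower, with a median of 0.79. In the KO library the 1285 genes of the former range had a median of -1.57 and the 1031 of the latter 0.70. Genes of 45 to 50% GC had medians of -0.01 and -0.10, with 19.9% higher and 22.6% lower in the WT and 17.99% and 27.6% in the KO library. Genes under 40% GC took 9.29% of the remaining UMIs of WT mt-poor, RP-rich cells and 21.1% of those of the reference, and 7.15% against 17.5% in the KO library. After subtraction of the median in each of 20 bins of GC content, 17% of WT genes were at least 1.5-fold higher and 21% lower, and 18.9% and 22.5% in the KO library.

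**Figure D3:**
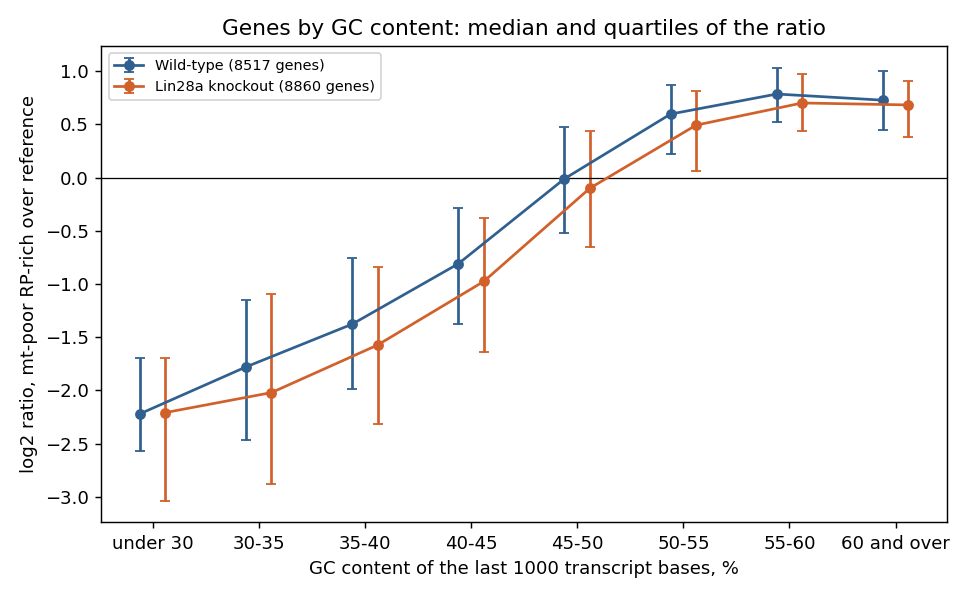
Median log2 ratio of mt-poor, RP-rich over reference cells (vertical, remaining CPM) for genes grouped by the GC content of the last 1000 transcript bases (horizontal, percent), with bars from the lower to the upper quartile of genes, for 8517 WT and 8860 KO genes. The medians climb from -2.22 and -2.21 under 30% GC to 0.79 and 0.70 at 55 to 60% and level off above.

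The same UMIs were also grouped by cell, which is no separate check of the shift. They include ribosomal genes outside the rule and processed pseudogenes, whose median GC content was 49.5% in the WT and 49.97% in the KO library. The part of the selection on RP share in the shift, by gene or by cell, was not tested. The mean GC content of a cell's remaining transcripts, weighted by UMIs, had a median of 49.6% in WT mt-poor, RP-rich cells (5th to 95th percentile 48.5 to 50.2%) and 46.4% in the reference (45.3 to 48.3%). In the KO library it was 50.4% (49.6 to 51.2%) against 47.2% (46.0 to 49.6%). Of the mt-poor, RP-rich cells 96.3% and 95.5% lay above the 95th percentile of their reference. Only 4 of 1362 and 9 of 779 reference cells lay above the median of the mt-poor, RP-rich cells. At the mt- limit, however, cells of at least 12% RP had close medians on both sides. Just inside and just outside it these were 49.2 and 48.9% in the WT, and 50.2 and 50.1% in the KO library. All reference cells of at least 12% RP had medians of 48.6% in the WT and 49.2% in the KO library. Barcodes of 100 to 500 UMIs had medians of 46.8 and 46.9%. Collagen-rich barcodes had medians of 46.7% in the WT (42 barcodes) and 49.5% in the KO library (13 barcodes). Their median RP share was 6.79% in the WT and 11.3% in the KO library, and their median mt- share 1.32% and 0.57%. A high GC content was thus also seen in KO barcodes of the feeder class.

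**Figure D4:**
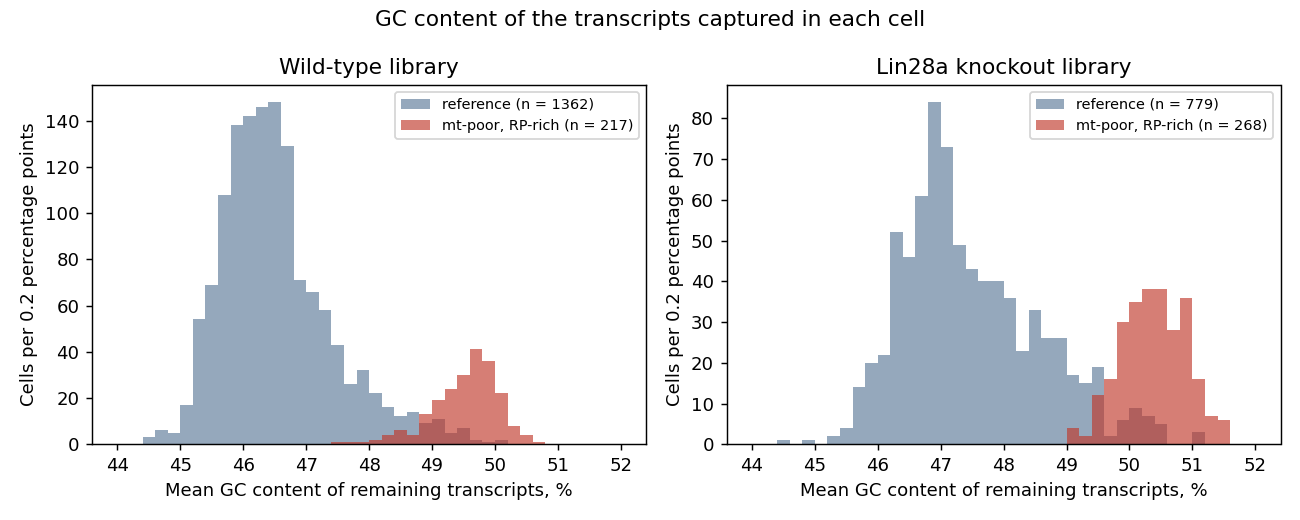
Number of cells (vertical, per 0.2 percentage points) by the mean GC content of their transcripts outside the RP, mt- and collagen genes (horizontal, percent), for mt-poor, RP-rich and reference cells of the WT (left) and KO (right) library. The medians are 49.6 against 46.4% and 50.4 against 47.2%, with little overlap between the classes.

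These cells also varied among themselves along the mt- share. Counting all barcodes with at least 5% RP, those of under 0.1% mt- in the WT library (40 cells) had a median RP share of 16.6%, and those of 0.4 to 0.5% (39 cells, 31 of them in the class) 13.7%. Splicing factor transcripts were at 6759 and 11185 remaining CPM in these 2 bands and 15332 in the 162 cells of 0.75 to 1%. Ribosomal genes outside the rule were at 29833, 22130 and 15181 remaining CPM in the same bands. In the KO library splicing factors went from 5148 in the 101 cells of 0.1 to 0.2% to 8019 in the 20 cells of 0.4 to 0.5% and 11140 in the 58 cells of 0.75 to 1%. The sum of DNA replication genes stayed between 5250 and 6466 remaining CPM over all 11 bands of both libraries. Mitosis genes summed to 6941 and 9346 in WT bands of under 0.1% and 0.75 to 1%. Nuclear-encoded respiratory chain subunits summed to 23840 and 17680 there. In KO bands of 0.1 to 0.2% and 0.75 to 1% these sums were 5900 and 8408, and 22674 and 19944. Sums of the splicing, ribosomal, mitosis and respiratory chain lists thus graded along the mt- share across the limit, and the replication sum did not. Single replication genes went both ways against the reference. In the WT class 13 of 41 were at least 1.5-fold higher and 10 lower, and in the KO class 10 and 11 of 40.

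The gene lists are described from the ribosome outwards, against the background shares of 24.3% higher and 39.2% lower WT genes and 22.4% and 40.3% KO genes. Counts after GC centring are read against their own shares of 17% and 21%, and 18.9% and 22.5%. The 7 listed ribosomal genes that the RP rule did not match, among them *Rplp0*, *Rplp1* and *Rplp2* of the stalk, *Rpsa* and *Rack1*, were all higher in both libraries. Their median log2 ratio was 1.15 in the WT and 1.01 in the KO library, and 0.58 and 0.47 after GC centring, when 3 of the 7 were at least 1.5-fold higher in each library. *Rplp0* was at 3382 against 1220 remaining CPM in the WT, a ratio of 2.77 (2.68 to 2.87), and at 4157 against 1546 in the KO library, 2.69 (2.60 to 2.78). *Rack1*, a scaffold of the small subunit, had ratios of 2.22 (2.15 to 2.28) and 2.12 (2.06 to 2.18). They were not counted in the RP share, but as ribosomal genes they are no independent check of cells chosen for a high RP share.

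Translation factors were divided, with 11 of 33 higher and 12 lower in the WT and 11 and 13 in the KO library. *Eif5a*, which helps elongation and termination, was at log2 ratios of 0.60 and 0.49. *Eef1a1*, which brings aminoacyl-tRNA to the ribosome and has a TOP tract, was at -0.43 and -0.76. *Eif3f*, a subunit of initiation factor 3, stood among the 12 genes with the largest ratios, at 3.13 (2.85 to 3.43) and 3.03 (2.77 to 3.31). The median GC content of the higher factors was 52.7% in the WT and that of the lower ones 39.7%.

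Other TOP mRNAs were divided. Of 19 measured in the WT 7 were higher and 8 lower, with a median log2 ratio of -0.43, and of 20 in the KO library 7 and 11, with -0.75. *Pabpc1*, the poly(A)-binding protein, was at 1290 against 3622 remaining CPM in the WT and 712 against 3049 in the KO library, log2 ratios of -1.49 and -2.10. *Npm1*, a ribosome assembly protein of the nucleolus, was at 1542 against 4585 and 878 against 3393, with ratios of 0.336 (0.322 to 0.351) and 0.259 (0.245 to 0.274). The snoRNA host genes, several of which have TOP tracts, were 1 higher and 4 lower of 8 in the WT and 1 and 6 of 9 in the KO library, and after GC centring 2 and 0, and 3 and 1.

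Of 40 nucleolar genes 12 were higher and 9 lower in the WT, and 12 and 8 in the KO library, with medians of 0.28 and 0.17. *Ncl*, the major nucleolar RNA-binding protein, was at log2 ratios of -0.28 and -0.16, and *Tcof1*, of rRNA gene transcription, at 0.33 and 0.54. After GC centring 9 were higher and 3 lower in the WT, and 11 and 2 in the KO library.

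Of 75 nuclear-encoded respiratory chain subunits 50 were higher and 3 lower in the WT, and 43 and 10 in the KO library, with medians of 0.82 and 0.66, and 0.45 and 0.31 after GC centring. In complex I, the NADH dehydrogenase, 26 of 36 were higher in the WT and 21 in the KO library, and 1 and 3 lower. In complex III 6 of 9 were higher and 0 lower in both libraries, in complex IV 8 and 6 of 10 were higher and 0 lower, and in ATP synthase 9 of 15 were higher in each and 1 and 4 lower. Of the 4 subunits of complex II, which has no mt- subunit, 1 was higher in each library, and 1 and 2 were lower.

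*Ndufv1*, the NADH-binding subunit of complex I, was at 187.1 against 64.0 remaining CPM in the WT, a ratio of 2.93 (2.52 to 3.39), and at 174.3 against 65.2 in the KO library, 2.67 (2.28 to 3.13). *Cox4i1*, of cytochrome oxidase, was at log2 ratios of 1.01 and 0.88. *Atp5a1*, the alpha subunit of ATP synthase, was at -0.24 and -0.64, and *Cox5a* at 0.07 and -0.13. Chosen after their values were seen, *Sdhb* and *Sdhd*, both of complex II, stood at 1.403 and 1.37 and at -0.95 and -1.82, with GC contents of 53.4 and 47.4%. The subunits that were higher in the WT library had a median GC content of 52.97%, those between the limits 46.1% and the 3 lower ones 44.1%.

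Mitochondrial ribosomal proteins, which are imported to translate the mt- mRNAs, were higher in 26 of 46 cases and lower in 1 in the WT, and 21 and 2 of 47 in the KO library. *Mrpl51* was at 0.63 and 0.82 and *Mrps25* at 0.65 and 0.66. Genes that maintain and transcribe mitochondrial DNA were 0 higher and 8 lower of 15 in the WT, and 1 and 7 of 14 in the KO library. *Tfam*, which packages mitochondrial DNA and starts its transcription, was at 45.9 against 90.2 and 32.1 against 80.5 remaining CPM, log2 ratios of -0.96 and -1.32. *Gabpa*, a transcription factor of nuclear-encoded mitochondrial genes, was at -1.85 and -2.75. The most abundant genes of the list were not called, with *Slirp* at 0.29 and -0.15 and *Ssbp1* at 0.31 and -0.0007. The list summed to ratios of 0.869 (0.819 to 0.921) in the WT and 0.743 (0.695 to 0.794) in the KO library. After GC centring the median of the maintenance genes was -0.05 and -0.18. Import, outer membrane and matrix genes were 10 higher and 11 lower of 37 in the WT, and 8 and 14 in the KO library, among them *Tomm20*, an import receptor, at -1.03 and -1.37.

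Pluripotency genes were divided. Of 12 core genes 2 were higher and 6 lower in each library, with medians of -0.54 and -0.73. *Nanog* was at 83.0 against 344.4 remaining CPM in the WT, a ratio of 0.242 (0.199 to 0.289), and at 69.4 against 364.7 in the KO library, 0.191 (0.155 to 0.232). *Pou5f1* had ratios of 1.42 (1.353 to 1.496) and 1.14 (1.09 to 1.20), under the limit in both. *Trim28*, a corepressor of endogenous retroviruses, was at 1113 against 482.3 and 1289 against 675.1, ratios of 2.31 (2.18 to 2.45) and 1.91 (1.81 to 2.02). *Tdgf1*, a Nodal co-receptor, was at log2 ratios of -0.84 and -0.98. The 6 lower core genes had a median GC content of 41.4% and the 2 higher ones 58.9%.

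Of 19 naive pluripotency genes 2 were higher and 8 lower in the WT, and 2 and 10 in the KO library. *Dppa5a* was at 2849 against 1162 and 2963 against 1369 remaining CPM, ratios of 2.45 (2.36 to 2.54) and 2.17 (2.09 to 2.25). *Zfp42* was at 453.8 against 888.1 and 371.2 against 721.2, ratios of 0.511 (0.471 to 0.553) and 0.515 (0.470 to 0.562). *Klf4* was at log2 ratios of -0.38 and -0.69 and *Klf5* at -0.07 and -0.18. After GC centring the list medians were -0.04 and -0.12. Among markers of pluripotency these cells were therefore neither uniformly raised nor uniformly low.

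Mitosis genes had more members lower than higher. Of 45 mitosis genes 5 were higher and 23 lower in the WT, and 4 and 24 of 46 in the KO library. After GC centring 6 were higher and 9 lower in the WT, and 7 and 8 in the KO library, with list medians of -0.12 and -0.13. *Top2a*, which untangles chromosomes, was at -0.63 and -0.80, *Hmgb2* at -0.66 and -0.96, and *Ube2c*, of the anaphase-promoting complex pathway, at 0.44 and 0.15. *Mki67* was at 133.0 against 191.0 and 98.1 against 104.2 remaining CPM, ratios of 0.698 (0.597 to 0.809) and 0.945 (0.782 to 1.13). Of 41 replication genes 13 were higher and 10 lower in the WT, and 10 and 11 of 40 in the KO library, and after GC centring 9 and 2, and 8 and 7. Within the list *Pcna*, the sliding clamp, was at 190.6 against 724.5 and 72.8 against 496.1, ratios of 0.263 (0.232 to 0.297) and 0.147 (0.120 to 0.178). *Mcm7*, of the replicative helicase, was at log2 ratios of 0.79 and 0.65.

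Splicing factors were the list with the lowest median, -1.15 in the WT and -1.41 in the KO library. None of 29 was higher, and 18 and 25 were lower. *Hnrnpf* was at 447.0 against 1603 and 279.7 against 1438 remaining CPM, ratios of 0.279 (0.257 to 0.302) and 0.195 (0.176 to 0.215). *Hnrnpa1* was at log2 ratios of -1.51 and -2.00 and *Hnrnpu* at -1.27 and -1.44. *Hnrnpk*, chosen after its values were seen, was the lowest at -3.52 and -3.78. The median GC content of the list was 39.0%, and after GC centring 6 were higher and 10 lower in the WT, and 6 and 12 in the KO library.

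Chromatin regulators had 1 higher and 14 lower of 27 in the WT, and 2 and 18 in the KO library, and after GC centring 5 and 7, and 6 and 8. Among them were *Cbx3* of heterochromatin at -2.05 and -2.28 and *Chd4*, a remodelling ATPase, at 0.09 and 0.28. Nuclear-retained transcripts were at most 7 measured genes, 0 higher and 4 and 3 lower. *Malat1*, a nuclear long noncoding RNA, was at 1462 against 4676 and 695.7 against 1954 remaining CPM, ratios of 0.313 (0.299 to 0.327) and 0.356 (0.334 to 0.379). *Kcnq1ot1* was at log2 ratios of -2.03 and -1.73, *Tsix* at -0.61 and -0.39, and *Meg3*, the next most abundant, at -0.29 and 0.03. The median of this list was -0.61 and -0.39, and -0.67 and -0.35 after GC centring. Counts of 3′ tags do not tell nuclear from cytoplasmic RNA.

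Immediate early genes, which respond to stimulation within minutes, were 0 higher and 10 lower of 15 in the WT, and 1 and 10 of 16 in the KO library. *Sgk1* was at 57.6 against 334.4 and 46.7 against 360.9 remaining CPM, ratios of 0.173 (0.137 to 0.214) and 0.130 (0.101 to 0.164). *Egr1* had ratios of 0.337 (0.278 to 0.401) and 0.220 (0.168 to 0.281), and *Dusp1*, a MAP kinase phosphatase, was at log2 ratios of -1.53 and -2.64. *Ier2*, with 60.7% GC, had ratios of 0.948 (0.853 to 1.05) and 0.751 (0.678 to 0.829). The list medians of -0.82 and -0.99 were -0.79 and -0.90 after GC centring, a smaller shift than in any other list with a median under -0.5.

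Stress and metabolic lists were mixed. Targets of Atf4, a factor of the integrated stress response, were 7 higher and 2 lower of 18 in the WT, and 7 and 2 of 19 in the KO library. *Asns*, asparagine synthetase, had ratios of 2.31 (2.12 to 2.51) and 2.58 (2.39 to 2.77), and *Atf4* itself 1.83 (1.69 to 1.99) and 2.15 (1.99 to 2.31). The list medians of 0.53 and 0.38 became -0.02 and 0.03 after GC centring. Proteasome subunits were 12 higher in both libraries, with 6 and 7 lower of 31, and glycolytic genes 5 higher of 16 in both, with 1 and 3 lower. *Pkm*, pyruvate kinase, was at log2 ratios of 1.05 and 1.01 and *Gapdh* at 0.62 and 0.55.

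Heat shock genes and chaperones had 7 higher and 11 lower of 23 in the WT, and 4 and 10 in the KO library, with medians of -0.36 and -0.57. After GC centring 5 were higher and 2 lower in both libraries, with medians of 0.09 and 0.20. The summed level of the list was higher than in the reference, by ratios of 1.18 (1.17 to 1.20) and 1.26 (1.24 to 1.27), while its uncentred median was below 0. *Hspa8*, a constitutive chaperone, was at 0.80 and 0.81. Ferritin, redox and metallothionein genes had 8 and 6 higher of 18 and 2 and 4 lower, with *Ftl1*, the ferritin light chain, at 1.14 and 0.76. Membrane and secretory genes had 6 higher and 13 lower of 26 in the WT, and 3 and 16 in the KO library, with *Cd9* at -0.81 and -1.11. Actin and tubulin genes had 5 and 3 higher of 15 and 0 and 3 lower, with *Actb* at -0.03 and -0.11.

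p53 targets had 8 higher and 9 lower of 18 in the WT, and 4 and 9 in the KO library. After GC centring 1 was higher and 4 lower in the WT, and 1 and 8 in the KO library, with medians of -0.06 and -0.30. *Bax*, which permeabilizes the outer mitochondrial membrane, was at 1.03 and 0.68, and *Cdkn1a* at 0.77 and 0.37. Apoptosis regulators had 3 higher and 5 lower in each library, of 12 and 13, with *Mcl1*, a survival factor, at -2.15 and -2.76. G1 cyclins and inhibitors had 3 and 0 higher and 3 and 3 lower of 12 and 10, and cholesterol synthesis genes 9 and 6 higher and 10 and 9 lower of 21 and 20. Of 5 measured primed epiblast genes 1 was higher and 1 lower in the WT, and 0 and 3 in the KO library. The feeder fibroblast list had 2 higher and 2 lower genes in each library, of 4 and 6 measured, the primitive endoderm list 0 of 2, and the 2C-like list had 0 genes measured.

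GC centring also turned the sign of the median for glycolysis (from 0.32 to -0.0051 in the WT and from 0.26 to -0.06 in the KO library). In the KO library it did so for ferritin, redox and metallothionein genes (from 0.32 to -0.13) and apoptosis regulators (from -0.43 to 0.06). Mitochondrial import, outer membrane and matrix genes (from -0.21 to 0.069) and cholesterol synthesis genes (from 0.065 to -0.014) turned there too. In the WT library it turned for snoRNA host genes (from -0.58 to 0.095), G1 cyclins and inhibitors (from 0.061 to -0.15) and primed epiblast genes (from -0.052 to 0.059).

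**Figure D5:**
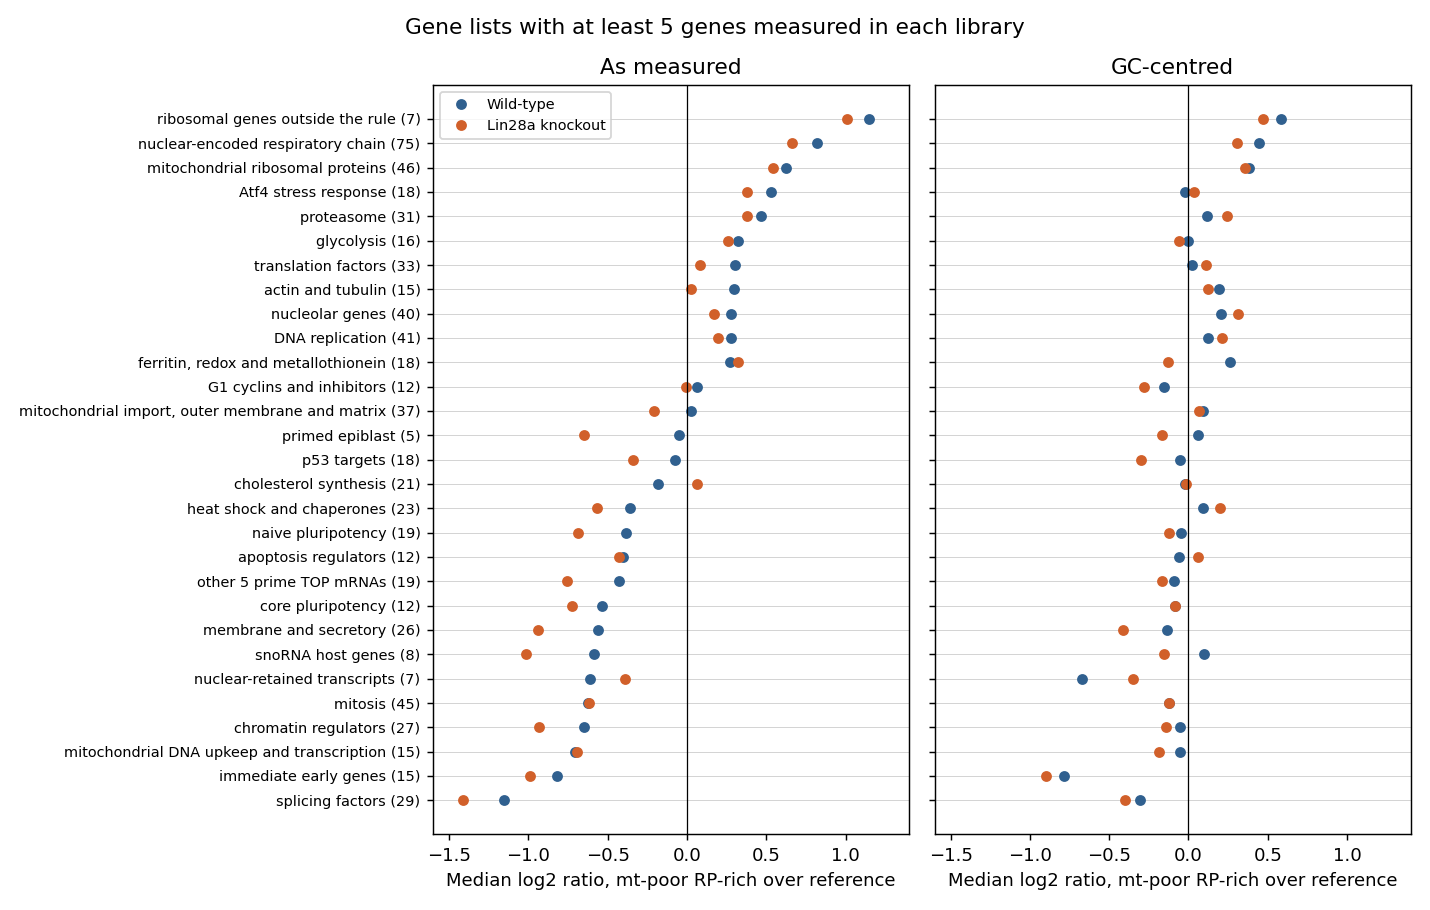
Median log2 ratio of mt-poor, RP-rich over reference cells (horizontal) for each gene list with at least 5 genes measured in both libraries (vertical, with the number of genes measured in the WT library), as measured on the left and after subtraction of the median of genes of like GC content on the right. On the left the lists run from -1.15 and -1.41 (splicing factors) to 1.15 and 1.01 (ribosomal genes outside the rule), and on the right most lie closer to 0, with immediate early genes at -0.79 and -0.90.

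The 12 genes with the largest ratios, ranked by the smaller of the 2 libraries' values, included *Srm*, spermidine synthase, at 311.2 against 93.9 and 428.0 against 145.4 remaining CPM, ratios of 3.32 (2.95 to 3.73) and 2.94 (2.65 to 3.26). *Trappc1*, of a vesicle tethering complex, had 3.35 (2.48 to 4.47) and 2.96 (2.24 to 3.88). The others besides *Eif3f*, *Rplp0* and *Ndufv1* were *Alg3*, a mannosyltransferase of the endoplasmic reticulum, *Abhd14a*, *2610318N02Rik*, and the pseudogenes *Gm7781*, *Gm5779*, *Gm10039* and *Dppa5c*. Of the 12, only *Eif3f* had a GC content under 50%. *Abhd14a* had 50 WT and 47 KO UMIs in the class, and *Alg3* 50 in the WT. They reached the minimum of expected UMIs there through these counts, so their ranks are uncertain. The pseudogene values are uncertain, since the counting can split reads between near-identical copies. Processed pseudogenes took 17.99% of remaining UMIs in WT mt-poor, RP-rich cells and 11.1% in the reference, and 20.9% and 12.9% in the KO library. Of 885 measured in the WT 488 were higher and 104 lower, and of 992 in the KO library 538 and 124. They were counted among the genes outside the rule. The RP rule matched names, so any RP pseudogenes under other names stayed among the remaining UMIs. The part of the selection on RP share in this rise was not tested.

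The 12 genes with the smallest ratios had GC contents between 30.4 and 42.4%. *Capza2*, an actin capping subunit, had 20 UMIs (13.7 remaining CPM) in WT and 18 (12.02) in KO mt-poor, RP-rich cells, against 237.8 and 249.4 remaining CPM in the reference, ratios of 0.059 (0.035 to 0.089) and 0.050 (0.028 to 0.076). *Zfp979* had 10 and 8 UMIs, with ratios of 0.049 (0.022 to 0.086) and 0.053 (0.021 to 0.098). *Ube2g1*, a ubiquitin-conjugating enzyme, had 7 and 3 UMIs and *Atp2c1*, a Golgi calcium pump, 4 and 3. Their KO folds were 36.3 (12.3 to 176.7) and 21.8 (7.39 to 106.6) in favour of the reference. These folds, and those of *Ormdl1* and *Gm17555* below, were taken without added counts. *Ap3s1*, of a trafficking adaptor, had 4 and 3 UMIs. *Itprid2* had 1 UMI in each library.

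*Ormdl1*, a regulator of sphingolipid synthesis, had 2 UMIs in the WT class, a fold of 19.6 (5.35 to 162.5), and 0 in the KO class, at least 11.4-fold lower than the reference with a floor of 3 counts over the class. *Gm17555* had 2 UMIs, a fold of 32.7 (8.99 to 271.2), and 0, at least 11.3-fold lower. The remaining 4, *Gm48501*, *Gm45038*, *Gm49273* and *Gm21750*, are unnamed genes, 3 of them annotated as processed pseudogenes.

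Knockout and WT mt-poor, RP-rich cells were then compared with each other. Of 7564 genes measured, 695 were at least 1.5-fold higher in the KO class (9.19%) and 1054 lower (13.9%). Between the reference cells 1645 of 14186 genes were higher in the KO library (11.6%) and 1088 lower (7.67%). Of the 1749 genes called between the mt-poor, RP-rich cells, 1567 (89.6%) had the same direction between the reference cells and 602 (34.4%) were also called there. Both comparisons come from the same 2 libraries, so neither is a check of the other.

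Among the largest differences *Bst2*, an interferon-induced membrane protein, was at 38.7 against 7.54 remaining CPM in KO and WT mt-poor, RP-rich cells, a log2 ratio of 2.31, and at 2.20 between the reference cells. *Bean1* was at 2.65 and 2.52 and *Tmem40* at 2.33 and 1.55. Among the 6 lowest, all unnamed *Gm* genes, *Gm17132* was at 52.7 against 320.1, a log2 ratio of -2.59, and at -2.17 between the reference cells. *Olfr986*, an olfactory receptor gene, had the highest log2 ratio in the mt-poor, RP-rich cells, 2.74, and was at 0.78 between the reference cells. It had 44 KO and 6 WT UMIs in the class, with an interval of the ratio of 3.03 to 20.5. *Bst2*, *Bean1* and *Tmem40* had 11, 10 and 12 WT UMIs there. These 4 genes reached the minimum of expected UMIs through their KO counts, so their ranks are uncertain.

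Log2 ratios of the 2 classes differed by at least log2 of 1.5 for 814 of 6787 genes, 139 on the higher and 675 on the lower side in the mt-poor, RP-rich cells. *Bpnt1*, of sulfate metabolism, was at 6.68 against 28.8 remaining CPM between the mt-poor, RP-rich cells and 46.4 against 45.2 between the reference cells, log2 ratios of -2.06 and 0.04. *Ppic*, a peptidyl-prolyl isomerase, was at -1.65 and 0.35, and *Rpa3*, of the single-strand DNA-binding complex, at -2.13 and -0.28. On the other side *Kdsr*, of sphingolipid synthesis, was at 1.37 and 0.23. *Bpnt1*, *Ppic* and *Rpa3* had 10, 15 and 9 KO UMIs in the class and 42, 47 and 40 WT ones. They reached the minimum of expected UMIs through their WT counts, and *Kdsr*, with 54 KO and 20 WT UMIs, through its KO count. The ranks of these genes are therefore uncertain. The genes on the lower side had a median GC content of 44.1%, those on the higher side 46.8% and all of these genes 47.8%.

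Over all genes 9.19% were higher and 13.9% lower between these cells, and 11.6% and 7.67% between the reference cells. By list, chromatin regulators had 0 higher and 13 lower of 25 genes in KO against WT mt-poor, RP-rich cells, with a median of -0.61, and splicing factors 0 and 11 of 29, with -0.54. In the reference cells 5 of 28 and 1 of 29 were lower, with medians of -0.33 and -0.23. Mitosis genes had 13 lower of 43 against 6 of 46. The 7 ribosomal genes outside the rule had 0 called, with a median of 0.07, and the 75 respiratory chain subunits 7 lower, with -0.05. *Rps6* was at -0.15, *Rpl11* at -0.06, *Pou5f1* at 0.04 and *Pcna* at -1.38, the last against -0.55 between the reference cells. The WT cells of this class were also the deeper ones, at a median of 7681 against 6195 UMIs. Their remaining transcripts had the lower median GC content, 49.6 against 50.4%. Splicing factors and chromatin regulators had median GC contents of 39.0 and 41.9%, and the medians between genotypes are not GC-centred. The parts of depth and of GC content in these differences were not tested.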

How the data were processed

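Droplet single-cell RNA-seq of 1 wild-type and 1 *Lin28a* knockout ES cell library was analysed. The files the authors deposited hold raw UMI counts, made with a published inDrop pipeline, 12079546 counts over 4329 barcodes in the wild-type and 10027710 over 6060 in the knockout library, shallow barcodes included. The submitters' processing notes name mm10 and Seurat 2.3.4. The aligner and annotation are not given in the sources used here. Of 54146 identifiers, 54079 matched GENCODE M21 of GRCm38 without their version and 52480 with it. The RP rule matched 86 genes, 6 of them pseudogenes, the mt- rule 37, and the collagens were 3.

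For each class the counts of its cells were summed and scaled to UMIs outside rule genes (remaining CPM). Ratios of genes had 0.5 counts added, exact conditional intervals, a limit of 1.5-fold and a minimum of 20 expected UMIs. Folds in favour of the reference and ratios of list sums had no counts added. Shares had Clopper-Pearson intervals. GC content was taken on 1 transcript a gene, over its last 1000 bases, and 3′ UTRs under 50 bases were left out. GC centring used 20 bins of equal numbers of genes. The members and gene lists were chosen with earlier results of these data known. Named genes were those given with the rule, *Lin28a*, *Pcna* and *Mki67*, mt- mRNAs and rRNAs, 12 genes from each end of the ranking by ratio, up to 4 most abundant per list, and the 6 highest and lowest between genotypes, also after division by the reference ratio. The code was tested on simulated data. Scrublet was run in scanpy 1.11.5 (anndata 0.12.19), statistics in scipy 1.17.1, sums in pandas 2.3.3 and numpy 2.4.6, and plots in matplotlib 3.10.9, all under Python 3.11.15.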

Additional observations from a re-analysis of the deposited data

Results flagged for a closer look

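*Hsd17b4*, a peroxisomal enzyme of fatty acid oxidation, was the gene at least 1.5-fold apart in opposite directions in the 2 libraries. It had 29 UMIs (19.9 remaining CPM) in WT mt-poor, RP-rich cells against 13.4 in the reference, a log2 ratio of 0.59, and 14 UMIs (9.35) against 14.5 in the KO library, a log2 ratio of -0.59. The intervals of both ratios, 0.949 to 2.25 and 0.339 to 1.14, include 1, and the difference between the libraries was not tested.

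Barcodes of 500 to 2000 UMIs lie outside the comparisons, and 10 of them in the WT and 41 in the KO library met the mt-, RP and collagen limits. Their median depth was 933 and 717 UMIs. The median GC content of their remaining transcripts was 48.2 and 49.0%, between the medians of the reference and of the deeper mt-poor, RP-rich cells in each library.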

How the results depend on the processing

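With 1 library a genotype no replicate could be left out. No paired analysis was possible because the groups share no replicate numbers beyond 1 and no test was made. The WT share of 13.2% became 9.68 or 17.8% with mt- limits of 0.3 or 1% and 7.98% with an RP minimum of 15%. The KO share of 24.1% became 18.9, 30.4 and 18.3% in turn, and 21.2 or 21.4% with at least 1000 or 5000 UMIs. Their ratio became 2.29 with the RP minimum of 15% and 1.45 with at least 5000 UMIs.

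Counts of genes higher and lower than the reference became 829 and 1362 (WT) and 801 and 1705 (KO) against reference cells of at least 12% RP. They were 47 and 101, and 5 and 27, with the 19 and 5 mt-poor cells of 5 to 12% RP in place of the class, 3221 and 5404 at 5 expected UMIs (5915 lower in the KO library), and 12276 and 9998, and 7465 and 10908, with no minimum. At 2-fold 712 and 611 were higher. GC centring gave 1787 and 1994 lower. Cells of 5000 to 10000 UMIs gave 2343 lower KO genes, and reference cells of 0.5 to 1% mt-, chosen after seeing the data, gave 873 and 1795. Between genotypes the class gave 1838 higher and 2253 lower at 5 expected UMIs, 7469 and 6867 with no minimum, and 158 and 309 at 2-fold.

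Signs turned against reference cells of at least 12% RP for *2610318N02Rik* (WT log2 ratio -0.055) and the primed epiblast median (KO 0.20, and 0.49 against 0.5 to 1% mt-). With the 19 and 5 cells of 5 to 12% RP they turned for *Lin28a* (0.88 and 0.97), *Itprid2* (0.10 and 2.36), in the WT for *2610318N02Rik* (-0.068) and *Ndufv1* (-0.030), and in the KO library for *Trappc1* (-0.19), *Gm7781* (-0.31), *Gm5779* (-0.74), *Dppa5c* (-1.28), *Gm48501* (0.67), *Gm45038* (0.71), *Gm49273* (0.16) and *Ormdl1* (1.31). Fewer genes or cells enter some of these by construction, and otherwise the cause was not tested.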
